A study of Rattus norvegicus with 14 samples.

Results

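The genes described are the rat ion channel and transmitter receptor genes on an Affymetrix array, measured in liver. They were found by symbol: sodium channels (Scn followed by a digit), potassium channels (Kcn), calcium channels (Cacn), GABA-A receptor subunits (Gabr), AMPA, kainate and NMDA glutamate receptor subunits (Gria, Grik, Grin), metabotropic glutamate receptors (Grm) and nicotinic acetylcholine receptor subunits (Chrn). Of 8740 probe sets besides controls, 202 carried a single such symbol, and they covered 130 of the 4736 genes with a single symbol. For 51 of the 130 genes there were several probe sets, and the one with the highest mean over all arrays stood for the gene. The livers came from male rats aged 74 days that had eaten a special diet for 53 days, either vitamin A-deficient or vitamin A-sufficient. Neither a strain nor a genetic change is named in the labels. Each diet had 7 arrays, 4 with targets made from about 10 µg of total RNA (numbers 1 to 4) and 3 from about 2 µg (numbers 1, 2 and 4). Below, "animal" stands for the average of the arrays that carry 1 diet and 1 number, with n = 4 per diet. That such arrays share a liver is not stated. The p-values of the main diet fit measure only the spread between these averages, which may be technical in part. Those of the RNA amount and interaction fits measure the spread between single arrays. Number 3 of each diet rests on a 10 µg array alone.

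Voltage-gated channels open a pore for sodium, calcium or potassium when the membrane potential changes, and they carry the impulses of nerve and muscle. Ionotropic receptors open a pore when a transmitter such as glutamate, GABA or acetylcholine binds, and metabotropic receptors act through G proteins instead. Hepatocytes do not fire impulses. Their membrane potential is set largely by potassium channels and the sodium pump, and many of the subunits described here are best known from brain, skeletal muscle, heart or kidney.

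Every level is log2 of the scaled intensity plus 16, so an intensity of 0 would read 4 and changes of dim genes are understated. Levels place a probe set against reference lines on the same arrays. They do not rank transcripts, since probe sets differ in brightness for the same amount of RNA. The first reference was a panel of 74 genes known for expression outside the liver (in brain, pituitary, eye, islet, testis, breast, thyroid, kidney or heart). Its 90th percentile, 7.90, is called the ceiling, and a gene over it was counted as above background. Of the 74 panel genes 8 lay over it themselves, so a level above background does not by itself show expression in liver. The panel ran from 4.20 to 9.47 with a median of 5.89, and its brightest probe sets were those of the insulin genes Ins2 (9.47) and Ins1 (9.37). The second line, 6.20, was the 40th percentile of all probe sets, and probe sets under it were not tested. Liver identity was clear in the hepatocyte markers, of which 9 of 9 measured lay over the ceiling, between 11.27 and 15.55.

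One animal of each diet stood apart in several skeletal muscle transcripts. The level of Acta1, skeletal muscle actin, was 9.79 in sufficient animal 3 and 9.13 in deficient animal 1, against 4.36 to 5.45 in the other 6 animals. Both arrays of deficient animal 1 showed it, at 9.12 and 9.13. Ckm, the muscle creatine kinase, followed with 8.18 and 7.78 against at most 6.37. Myh7, a slow muscle myosin, had 7.37 and 7.44 against at most 6.24. Of the other listed skeletal muscle or heart markers, Myl2 and Tnni2 had both animals over the other 6, and Tnnt2 and Actn2 did not. For Tnnt2 and Actn2, sufficient animal 3 read 6.57 and 4.54, against 5.48 to 6.60 and 4.56 to 5.14 in the other 6. Deficient animal 1 was the highest for both, at 7.19 and 6.17. The channel and receptor genes best known from skeletal muscle were looked at after these values were seen. Of 10 such genes, 4 had both animals over the other 6. The share of all genes with this pattern was not counted, so whether 4 of 10 is unusual is not known. The 2 animals were also picked from these same data. Chrna1, the muscle acetylcholine receptor α subunit, stood at 7.0 in both against 5.80 to 6.62 in the rest. Chrng, the fetal γ subunit, stood at 8.96 and 9.12 against 8.43 to 8.94. Cacng1, the γ subunit of the muscle calcium channel, stood at 7.47 and 7.61 against 6.72 to 7.36. Cacna1s, the pore of that channel, read 4.84 in both against 4.58 to 4.76, all under the median of the control probe sets described below (5.10). Scn4a, the skeletal muscle sodium channel, did not follow, with 8.13 and 7.76 against 7.70 to 8.16. Nor were both animals over the other 6 for Cacna2d1, Cacnb1, Chrnb1, Chrnd and Chrne. Where leaving out these 2 animals turned a sign or moved a diet difference by over 1.5 times, the value without them is given.

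**Figure D1:**
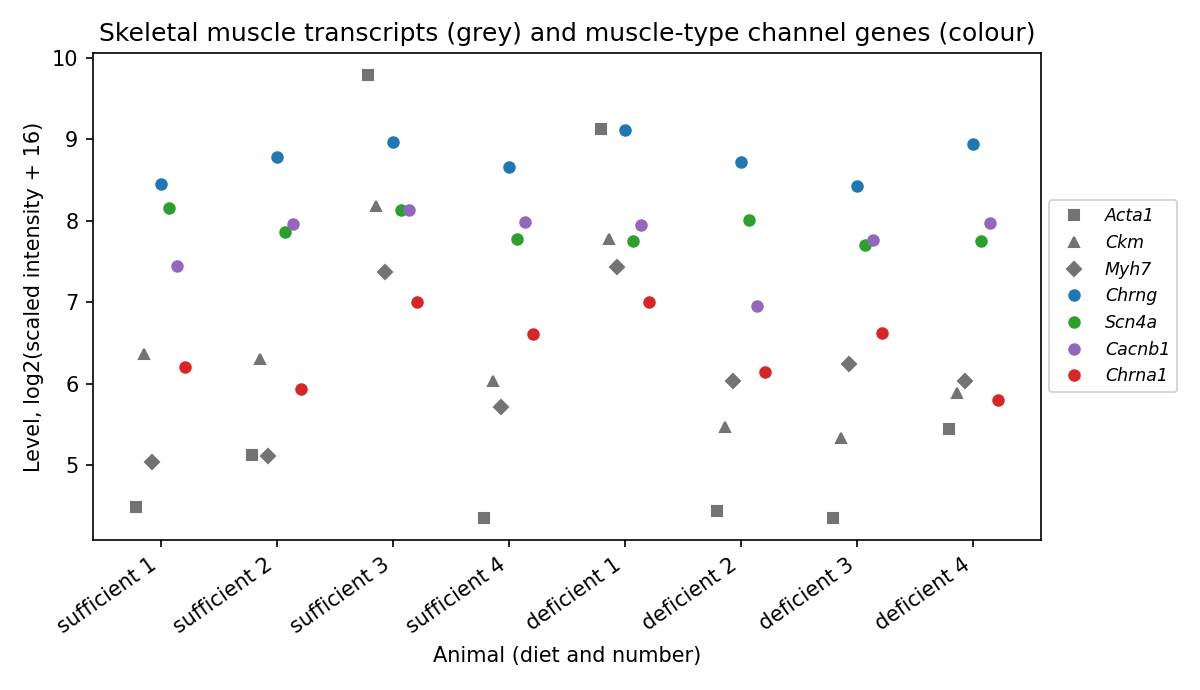
Level (log2 of scaled intensity plus 16) of 3 skeletal muscle transcripts (grey) and 4 muscle-type channel or receptor genes (colour) in each of the 8 animals, with 1 point per gene and animal. Acta1 reads 9.79 in sufficient 3 and 9.13 in deficient 1 and at most 5.45 elsewhere, while Scn4a stays between 7.70 and 8.16.

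Most of these genes read at the level of the off-tissue panel. Of the 130 genes, 4 lay above the ceiling (3.08%), against 1750 of 4736 genes with a single symbol (37.0%), and 126 lay near background. By the same rule 8 of the 74 panel genes lay above the ceiling. The brightest member, Kcnh3 at 8.88, read below the panel's Ins1 and Ins2. The median level of the 130 was 5.86, beside 5.89 for the panel. Kcnh3, Chrng and Kcnh2 were over the ceiling on all 14 arrays, and 18 genes were over it on at least 1 array. At the low end, 34 genes were under the test line on all 14 arrays. The test line was passed by 45 genes (34.6%), against 3135 of the 4736 genes (66.2%), so 85 members, with levels from 4.28 to 6.19, were not tested. The nearest members on either side of that line were Kcnk1 at 6.21 and Gabrg1 at 6.19.

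How many members count as above background depends on the reference. A line drawn from 34 control probe sets with no rat transcript to bind (bacterial, yeast or antisense sequences, chosen after seeing the data) was lower, at 6.75 for their 90th percentile, and 31 members lay over it. The highest control stood at 6.96, and 25 members were over that. Below the control median of 5.10 lay 26 members. Without sufficient animal 3 and deficient animal 1, with the panel's ceiling drawn again, 7 members were above it. The panel itself holds muscle genes, among them Myh7, Tnnt2 and Myl2. Myl2 (7.77), the panel gene next under the ceiling, read 8.19 and 8.08 in these animals, against at most 7.93 in the others.

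**Figure D2:**
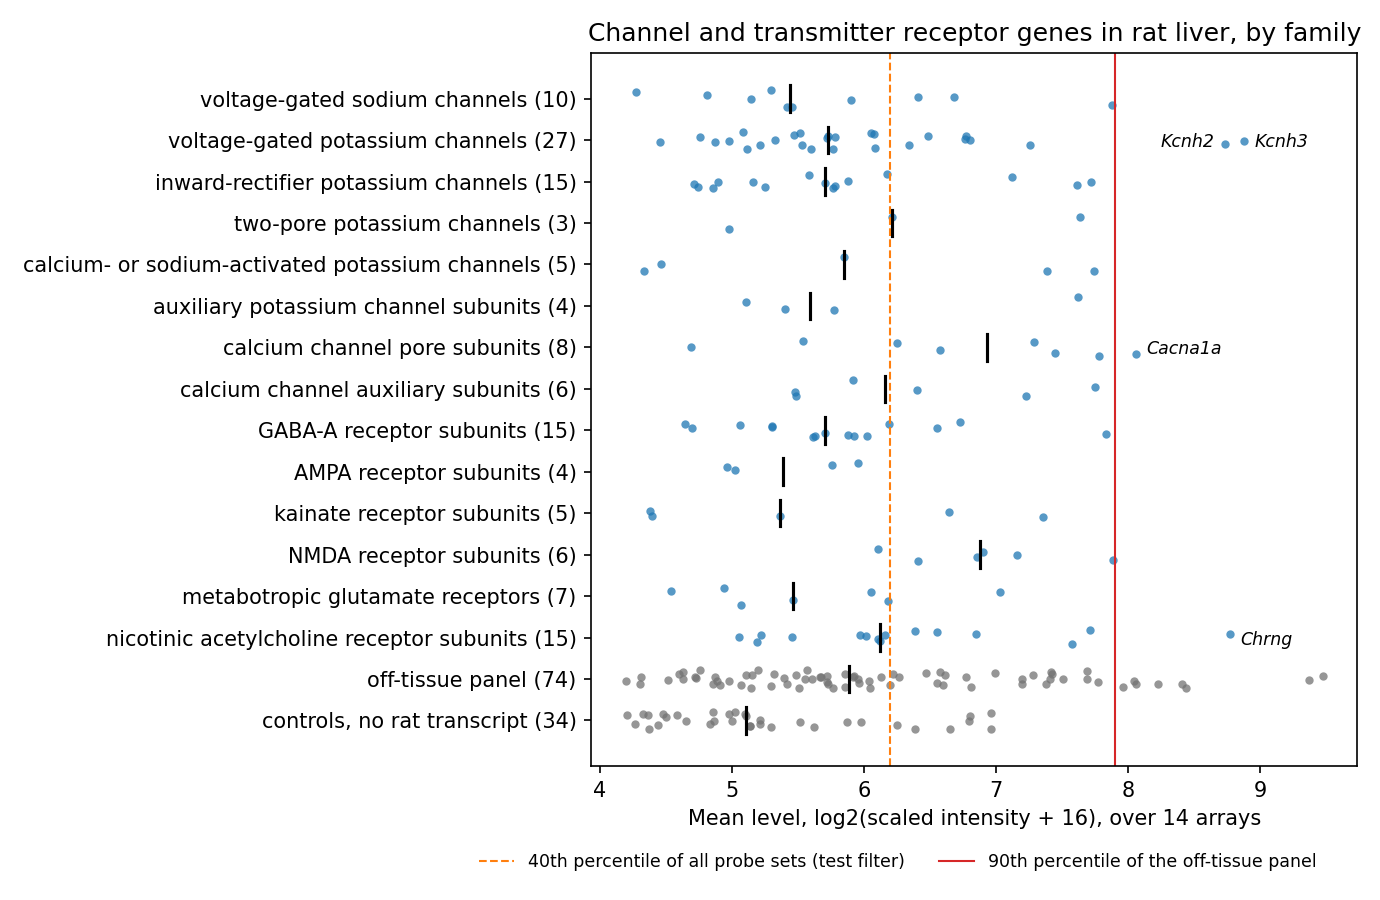
Mean level over 14 arrays (log2 of scaled intensity plus 16) of each of the 130 genes by family, with the off-tissue panel and the control probe sets in grey; each point is 1 gene or control, black bars are medians and the number in brackets is how many are drawn. The 4 genes right of the ceiling (solid line, 7.90) are Kcnh3, Kcnh2, Chrng and Cacna1a, and each family median lies left of it.

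Potassium channels made up the largest group. Of 27 voltage-gated potassium channel genes 8 were tested, and 2 lay above the ceiling. Kcnh3 encodes a channel of forebrain neurons, and Kcnh2 the ERG channel that repolarises the heart. Kcnh3 read 8.61, 8.93, 9.04 and 9.00 in deficient animals 1 to 4 and 8.69, 8.99, 9.02 and 8.96 in sufficient animals 1 to 4. Animal 1 was the lowest in both diets and the groups overlapped (8.90 ± 0.20 against 8.91 ± 0.15, SD, n = 4). Kcnh2 read 9.11, 8.55, 8.26 and 8.59 in deficient animals and 8.92, 9.03, 8.56 and 8.58 in sufficient animals. These groups overlapped as well (8.63 ± 0.35 against 8.77 ± 0.24, SD, n = 4). Several delayed rectifier and transient channels were dim, with Kcna1 at 5.53, Kcna2 at 4.98, Kcnb2 at 5.52 and Kcnd2 at 5.21. Others passed the test line, among them Kcna6 at 6.76 and Kcna4 at 6.34. Kcnq1, a channel of heart and epithelia, read 4.46, and Kcne1, its auxiliary subunit in the heart, 5.78.

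Among 15 inward rectifiers, which help hold the resting potential, 3 passed the test line. Kcnj1, the ROMK channel of the kidney tubule, read 7.72 and Kcnj8, the pore of the vascular ATP-sensitive channel, 7.61. Abcc9, the sulfonylurea receptor that assembles with Kcnj8, belongs to the list of other channels described further on and read 8.45. The pore and receptor of the islet form, Kcnj11 and Abcc8, read 6.18 and 7.11. Abcc9, Abcc8 and Kcnj11 were picked after their values were seen. Of 3 two-pore channel genes, which carry background potassium current, Kcnk5 read 7.64, Kcnk1 6.21 and Kcnk3 4.98. Of 5 calcium- or sodium-activated channel genes, 2 were tested. Kcnn1, a small-conductance channel, read 7.74. Kcnmb1, the smooth muscle β subunit of the large-conductance channel, read 7.38, while its pore Kcnma1 read 5.85. Of 4 auxiliary subunits, Kcnab2 read 7.62 and the other 3 lay under the test line.

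Of 8 calcium channel pore genes, 6 were tested. Cacna1a, the pore of the neuronal P/Q-type channel, was the one above the ceiling. It read 8.48, 7.91, 8.06 and 8.05 in deficient animals 1 to 4 and 7.94, 7.96, 8.38 and 8.00 in sufficient animals 1 to 4. The highest values were those of the animals with high Acta1, 1 per diet, and the groups overlapped (8.12 ± 0.24 against 8.07 ± 0.21, SD, n = 4). Cacna1g, a T-type pore, read 7.78. Among the L-type pores, Cacna1c of heart and vessels read 7.29, Cacna1d 6.58 and Cacna1s of skeletal muscle 4.69. Of 6 auxiliary genes 3 were tested, and the brightest was Cacnb1 (7.75), the β subunit of the skeletal muscle channel. Of 10 sodium channel genes 3 were tested: Scn4a (7.88), the neuronal Scn3a (6.68) and Scn7a (6.41). The neuronal Scn1a, at 4.28, had the lowest level of the 130 genes.

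Of the nicotinic receptor subunits 6 of 15 were tested. Chrng read 9.12, 8.73, 8.43 and 8.94 in deficient animals 1 to 4 and 8.45, 8.79, 8.96 and 8.66 in sufficient animals 1 to 4, with overlapping groups (8.80 ± 0.29 against 8.72 ± 0.21, SD, n = 4). The subunits it joins in fetal muscle were dimmer: Chrna1 at 6.39, Chrnb1 at 6.16 and Chrnd at 6.55. Chrne, the adult replacement of Chrng, read 6.85. Chrnb4, a subunit of autonomic ganglia, read 7.71 and Chrna7, which forms receptors on its own, 7.57. Of 8 neuronal markers 5 were tested and 0 lay over the ceiling. Of 4 glial or Schwann cell markers 1 was tested and 0 lay over it. Syn1, Syp, Snap25, Nefl, Nefm, Gap43, Th, Mbp and Mog are themselves in the panel that set the ceiling. Their place under it was therefore largely fixed in advance. Uchl1 (6.29), Pmp22 (6.92) and S100b (5.26) are not in the panel. Mapt, a neuronal gene of the panel, read 8.06, over the ceiling.

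Glutamate receptors were taken by class. None of the 4 AMPA subunit genes was tested, the brightest being Gria1 at 5.95. Of 6 NMDA subunit genes, 5 were tested. Grin2b read 7.89, just under the ceiling, and Grin1, the subunit that every NMDA receptor needs, read 6.41. Of 5 kainate subunit genes 2 were tested, led by Grik3 at 7.36. Of 7 metabotropic genes 1 was tested, the presynaptic receptor gene Grm4 at 7.03. Of 15 GABA-A genes 3 were tested, led by Gabrr1, a subunit of the retina, at 7.83. The members just under the ceiling were therefore Grin2b, Scn4a (7.88) and Gabrr1, over it on 5, 9 and 6 of 14 arrays. Cacna1a, just above the ceiling in its mean, was over it on 9.

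A gene's probe sets did not read alike. Of the 23 tested genes with several probe sets, 15 had no other one over the test line, and 0 of the 51 such genes had a second one over the ceiling. The other probe set of Kcnh3 read 6.82 and that of Kcnh2 5.69. For Cacna1a the other 3 read 6.26, 5.17 and 4.96, and for Scn4a the other 2 read 5.82 and 5.42. Chrng, Kcnk5, Grin2b, Gabrr1, Cacna1g and Cacnb1 had 1 probe set each, so no such check was possible. With the mean of a gene's probe sets in place of the brightest, for members and panel alike, 14 members were above the panel's lower ceiling. The sequences to which the probes bind were not used here, and why probe sets of 1 gene differ was not tested.

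**Figure D3:**
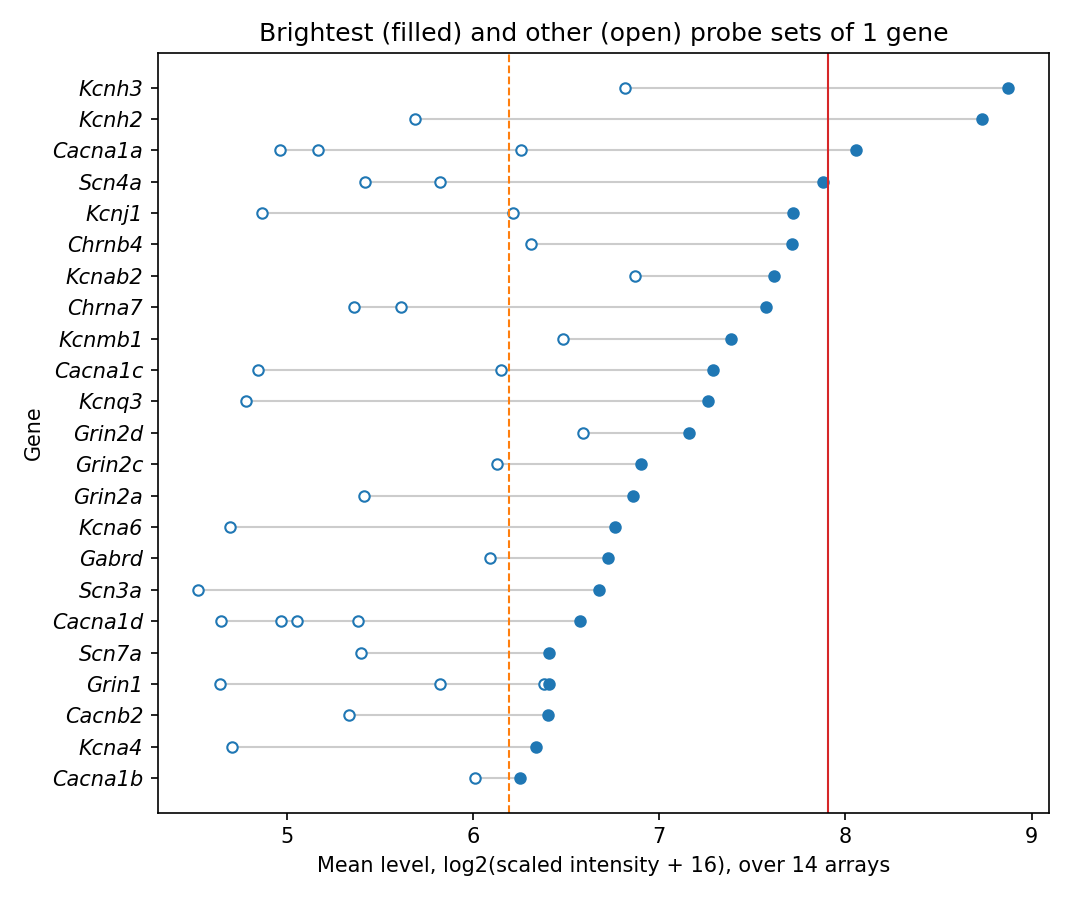
Mean level over 14 arrays (log2 of scaled intensity plus 16) of the brightest (filled) and the other (open) probe sets of the 23 tested genes that have several; the dashed line is the test line (6.20) and the solid line the ceiling (7.90). The open points of Kcnh3, Kcnh2 and Cacna1a all lie left of the ceiling, at 6.82, at 5.69 and at 6.26 or less.

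The diet comparison asked which genes differ between livers of deficient and sufficient rats. None of the 45 tested members passed limma's test at an adjusted p of 0.05 (Benjamini-Hochberg over 5244 probe sets), where 90 of the 5244 did (1.72%). At an unadjusted p under 0.05 there were 2 members, Kcnk5 and Kcnj1 (4.44% of 45), against 759 probe sets (14.5%). The 4 deficient animals lay wholly apart from the 4 sufficient ones for 1 member, Kcnk5 (2.22%), against 467 probe sets (8.91%). Estimates were higher in deficient animals for 23 members and lower for 22, beside 3063 and 2181 of all tested probe sets. The median of the members was 0.0007 on the log2 scale, beside 0.04 over all tested probe sets, and the median size was 0.15 beside 0.16. For 42 of the 45 the estimate was under 0.5 in size. The standard errors ran from 0.14 to 0.41 with a median of 0.20, beside 0.17 over all tested probe sets. Differences well over 1 SE could still miss the threshold: Kcnk5, at 0.84, had a limma adjusted p of 0.0835. A missed threshold does not show equal levels.

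Kcnk5, which encodes TASK-2, a pH-sensitive background potassium channel known from kidney epithelium, had the largest difference and the lowest p of the members. It read 7.90, 8.02, 8.19 and 8.01 in deficient animals 1 to 4, and 7.50, 7.67, 6.94 and 6.68 in sufficient animals 1 to 4. The deficient values lay close together and each was above the highest sufficient value, while the sufficient animals spread over about 1 unit. The means were 8.03 ± 0.12 and 7.20 ± 0.46 (SD, n = 4), a difference of 0.84 (SE 0.21), or 1.78-fold on this scale, with a limma adjusted p of 0.0835. Single arrays did overlap: deficient animal 1 read 7.60 on its 2 µg array, below 7.79 for sufficient animal 1 at 10 µg. The difference was 0.81 among the 10 µg arrays and 0.73 among the 2 µg arrays.

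The threshold was passed for Kcnk5 in 2 other fits, and over the alternatives the limma adjusted p ran from 0.0295 to 0.425. In a fit of 14 separate arrays, blocked at random by diet and number, the difference was 0.80 with an adjusted p of 0.0295. Without sufficient animal 2 it was 0.99 with an adjusted p of 0.0425. Without sufficient animal 3 and deficient animal 1 it was 0.80 with an adjusted p of 0.239. Kcnk5 has 1 probe set and its mean level is under the ceiling, with 6 of 14 arrays over it.

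Markers of several cell types moved with the diet, and their part in the value of Kcnk5 was not tested. The summed scaled intensity of 6 erythroid markers was 3981 to 6782 in deficient and 12798 to 15884 in sufficient animals, and 4 of the 6 fell. The sum of 5 endothelial markers was 514 to 626 against 760 to 925 (1 of 4 tested fell, Lyve1). By gene these went both ways: Lyve1 and Aqp1 each stood at -1.04 on the log2 scale, Kdr at -0.02 and Pecam1 at 0.22. Vwf, not tested, read 6.05 in deficient and 5.69 in sufficient animals. The sum of 6 macrophage markers was 6105 to 8001 against 4414 to 5287 (1 of 5 tested rose, Lgals3). For 8 stellate cell markers it was 2887 to 3417 against 2709 to 3275 (1 of 7 tested rose, Vim). The estimates of these 7 went both ways, 3 higher and 4 lower in deficient animals. Col1a1 had the lowest, -0.85 on the log2 scale, with a limma adjusted p of 0.120. For 5 cholangiocyte markers the sum was 947 to 1099.9 against 810 to 991, and for 8 lymphocyte markers 798 to 1003 against 799.6 to 940.5. For 9 hepatocyte markers it was 245760 to 281900 against 200040 to 248300, and for 6 smooth muscle markers 603 to 866 against 554 to 1044. In these last 4 lists 0 genes passed the test. The 8 neuronal markers summed to 505 to 633 against 469 to 704. No marker was listed at 0, as the lowest deposited intensity was 0.1. In whole liver, fewer cells of a type and less RNA per cell cannot be told apart.

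**Figure D4:**
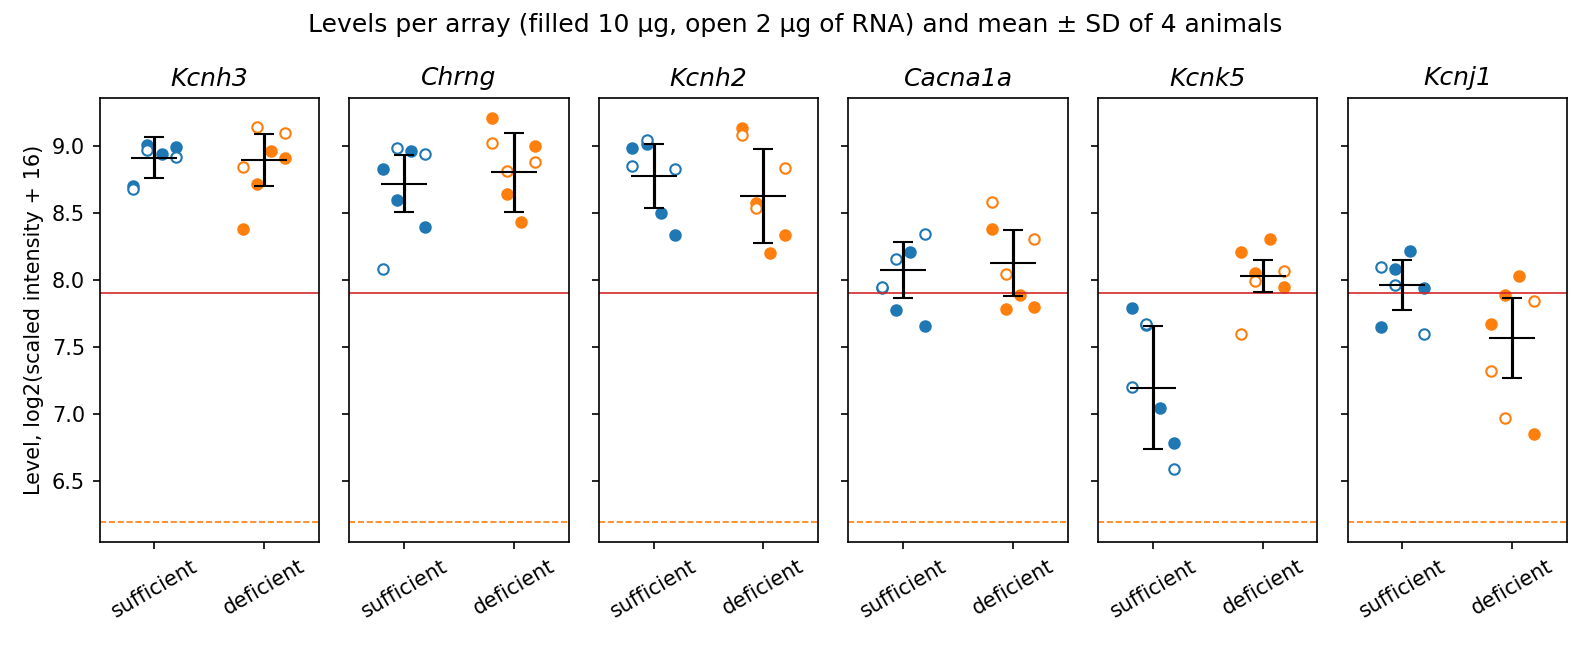
Level (log2 of scaled intensity plus 16) on each array of the 4 genes above the ceiling and of Kcnk5 and Kcnj1, by diet, with filled points for 10 µg and open points for 2 µg of RNA; bars are mean ± SD of the 4 animals of a diet, the solid line is the ceiling (7.90) and the dashed line the test line (6.20). Kcnk5 averages 8.03 in deficient and 7.20 in sufficient animals, while Kcnh3 averages 8.90 and 8.91.

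Kcnj1 was the second member under the unadjusted threshold. It read 7.49, 7.43, 8.01 and 7.34 in deficient animals 1 to 4, and 7.87, 8.02, 8.19 and 7.77 in sufficient animals 1 to 4. Deficient animal 3 lay within the sufficient range and the other 3 below it. The difference was -0.40 (SE 0.17) with a limma adjusted p of 0.324. The second tested probe set of Kcnj1, at a level of 6.22, went the other way, with a difference of 0.13 (SE 0.21) and a limma adjusted p of 0.868. The third, at 4.87, was not tested.

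The remaining large estimates had wide errors, and single animals moved each of them by over 1.5 times, apart from Kcna6. Grik3 differed by 0.51 (SE 0.41), where sufficient animal 2 read 6.04 and sufficient animal 3 read 8.49. It was 0.10 without the former, 0.92 without the latter and 1.03 without sufficient animal 3 and deficient animal 1. Cacnb2, a calcium channel β subunit of heart and brain, differed by -0.53 (SE 0.33), from 5.59 in deficient animal 4 to 7.12 in sufficient animal 3. It was -0.82 without deficient animal 1, -0.35 without deficient animal 4 and -0.29 among 10 µg arrays. Kcna6, a neuronal delayed rectifier, had an estimate of 0.37, which was 0.65 among 10 µg and 0.14 among 2 µg arrays. Kcnk1 had one of 0.39, which was 0.03 without sufficient animal 3, 0.59 without sufficient animal 1 and 0.25 among 2 µg arrays. Kcna4, a transient potassium channel, had one of 0.33. It was 0.09 without sufficient animal 3, 0.13 without deficient animal 1, 0.19 without deficient animal 2, 0.22 without sufficient animal 4, 0.61 without sufficient animal 2 and 0.64 without deficient animal 3. Without sufficient animal 3 and deficient animal 1 the signs of Kcna4 and Kcnk1 turned, to -0.12 and -0.10. Chrna7 stood at -0.34, and at -0.22 without deficient animal 3. Kcnh4 stood at -0.28, and at -0.12 without the same animal. Grm4 stood at -0.25, at -0.47 without sufficient animal 4, at -0.13 without sufficient animal 1, at -0.14 without deficient animal 2 and at -0.04 among 2 µg arrays. For Cacnb2, Kcna4 and Kcnk1 the mean of 1 diet lay under the test line, so part of the difference was measured in the range of untested probe sets. Fitted without the test line, the other probe sets of Chrna7 stood at 0.21 and 0.20 and that of Cacnb2 at 0.03. These were opposite in sign to the brightest probe set. Those of Kcna4 and Kcna6, at 0.16 and 0.20, had its sign.

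**Figure D5:**
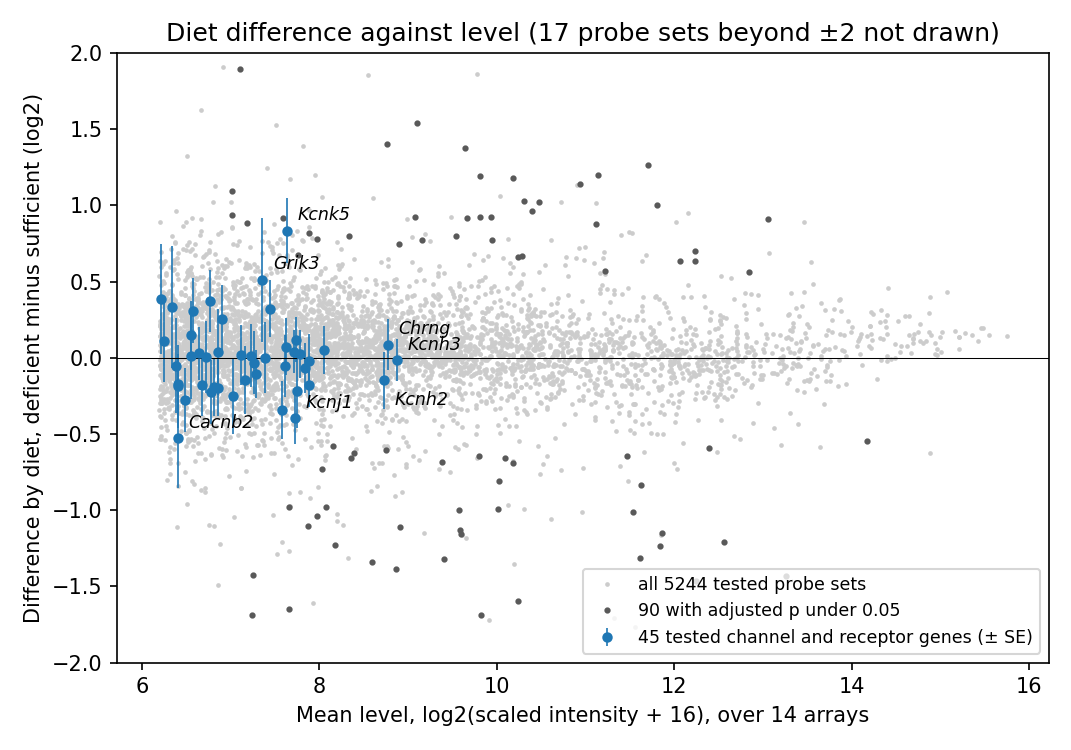
Difference by diet (log2, deficient minus sufficient) against mean level over 14 arrays for 5244 tested probe sets, less 17 beyond ±2; light points are all probe sets, dark points the 90 with a limma adjusted p under 0.05 and blue points the 45 tested members with their SE. The members lie between -0.53 (Cacnb2) and 0.84 (Kcnk5), and none is among the 90.

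Without the test line, 6 of 130 members (4.62%) had an unadjusted p under 0.05, against 959 of 8740 probe sets (11%). Of the 6, 5 were dim genes that the test line had left out: Kcng1, Kcnj2, Grik2, Grm3 and Chrnb2. The clearest of these 5 was Kcng1, a modifier subunit of voltage-gated potassium channels. It read 6.41, 6.20, 5.98 and 5.82 in deficient animals 1 to 4 and 5.51, 5.23, 5.36 and 5.54 in sufficient animals 1 to 4. The groups did not overlap. The estimate was 0.69 (SE 0.20) with a limma adjusted p of 0.202 over all probe sets, at a level under the control line of 6.75.

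The amount of RNA used for the target was the other condition. None of 5244 probe sets passed an adjusted p of 0.05 in limma between 10 µg and 2 µg arrays (0%), with 347 at an unadjusted p under 0.05 (6.62%). With diet and number as a block 2 probe sets passed, and 0 members. Unadjusted, 1 member was under 0.05 (2.22%), Cacna1a. Its level was 7.90 ± 0.24 (n = 4) and 8.15 ± 0.20 (n = 3) in sufficient livers at 10 and 2 µg, and 7.96 ± 0.28 and 8.31 ± 0.27 in deficient livers. The difference, 10 minus 2 µg, was -0.30 (SE 0.13) with a limma adjusted p of 0.714. Estimates were higher at 10 µg for 16 members and lower for 29, beside 2757 and 2487 of all tested probe sets. The largest among members were 0.51 for Chrna1, 0.34 for Gabrd, 0.32 for Cacnb2, 0.31 for Kcnh4 and 0.31 for Chrne in one direction. In the other they were -0.46 for Grik3, -0.40 for Grin2a, -0.35 for Kcnn1, -0.34 for Scn7a and -0.30 for Kcnk1. With diet and number as a block, Grik3 moved to -0.74 (limma adjusted p 0.132) and Kcnk1 to -0.05, and the other 8 moved by less than 1.5 times. Whether the diet difference depended on the amount was tested as an interaction, which 0 of 5244 probe sets passed in limma (0%), with 96 at an unadjusted p under 0.05 (1.83%) and 0 members. The lowest unadjusted p among members was 0.085, for Scn3a.

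Related lists give the surroundings of these genes. The list of other channels and pumps took in chloride, epithelial sodium, acid-sensing, TRP, cyclic nucleotide-gated, purinergic and intracellular calcium channels, connexins and ion pumps. Sulfonylurea receptors, glycine receptors, Htr3a, Grid1 and the metabotropic GABA-B receptors were in it as well. This list had 51 genes on the array, of which 31 were tested and 13 lay above the ceiling. Its brightest genes were Gjb1 (12.23), the main connexin of hepatocyte gap junctions, Atp2a2 (11.30), a calcium pump of the endoplasmic reticulum, Atp1b1 (9.94), the β subunit of the sodium pump, and Vdac1 (9.64), a pore of the outer mitochondrial membrane. Atp1b1 rose, from 9.60 ± 0.13 in sufficient to 10.37 ± 0.26 in deficient animals (SD, n = 4), a difference of 0.77 (SE 0.15) with a limma adjusted p of 0.0204. It was 1 of 31, and 0 fell, beside 1.72% over all tested probe sets. The largest difference of the list was that of Abcc8, 6.70 ± 0.40 in deficient and 7.55 ± 0.31 in sufficient animals (SD, n = 4), or -0.85 (SE 0.23) with a limma adjusted p of 0.101. The median over the 31 was 0.07. The list of metabotropic transmitter receptors had 41 genes on the array, 20 tested and 3 above the ceiling. The brightest were the nucleotide receptor gene P2ry2 (9.60), the hepatic adrenergic receptor gene Adra1b (9.23), the dopamine receptor gene Drd3 (9.07) and the adenosine receptor gene Adora2a (7.87). Of the 20, 0 passed the limma test, the lowest adjusted p being 0.451, and 0 had an unadjusted p under 0.05. Their median was -0.05.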

How the data were processed

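The authors deposited 1 linear intensity per probe set on 14 single-channel arrays. The program that made them is "not given in the sources used here". Each deposited array had a 2% trimmed mean intensity of 1001.87 to 1002.05 (median 175.1 to 231), so arrays had been scaled to one level. Precision is limited by how many arrays there are. No detection calls or genome coordinates were used, and the table names no build. Of 8799 probe sets, 59 controls were left out. By the platform annotation 7006 of the rest had 1 gene symbol, 308 several and 1426 none, and 0 with several symbols matched the symbol rule. In RefSeq's table for GRCr8, 130 of 130 members were found, with 0 symbols changed. No sequences of probes or proteins were used here.

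Arrays were scaled to a trimmed mean of 500, and log2 of intensity plus 16 was fitted in limma 3.58.1 (R 4.3.3; lmFit, eBayes with trend, two-sided, Benjamini-Hochberg) on 5244 probe sets at or over the 40th percentile. For diet, the mean shift between RNA amounts (6 pairs) was removed and arrays of 1 diet and number were averaged. Amount and interaction fits used 14 arrays. Arrays of 1 diet and number at both amounts deviated together (r 0.20 to 0.35 in 6 pairs, against -0.25 to 0.12 for different numbers of a diet), so the block is given where it moves a count. This pairing comes from the data and shared numbers.

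The members, gene lists and tests were chosen with earlier results of these data known. Genes were named by rule: members past an adjusted p of 0.05, or an unadjusted p of 0.05 by diet, the 15 brightest, the brightest of each of 14 families, 3 on each side of the ceiling, the 5 largest differences each way by diet and amount, and the 4 brightest of each related list and those that passed. Family members named for their dim levels, muscle genes, endothelial markers, Abcc9, Abcc8, Kcng1, Grm7, Mapt and Col1a1 were named after their values were seen. Fits were checked on simulated data. Alternatives were other scalings (median, quantile), pseudocounts of 1 and 64, other filters and ceilings, each amount alone, blocks, no removal of the shift, no trend, and leaving out animals.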

Additional observations from a re-analysis of the deposited data

Results flagged for a closer look

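In 2 of 58 groups of 4 animals, 1 animal lay far from the other 3 by Dixon's criterion, where chance alone flags about 1 in 20 groups. Cacna1a read 8.38 in sufficient animal 3, against 8.00 for the nearest and 7.94 for the lowest of the other sufficient animals. That animal rests on 1 array and had high Acta1. Kcnh4, a voltage-gated potassium channel gene, read 5.81 in deficient animal 3, against 6.40 for the nearest and 6.48 for the highest of the other deficient animals, and that animal rests on 1 array too.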

How the results depend on the processing

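The number of members passing by diet was 0 in 19 of 21 alternatives and 1, Kcnk5, with 14 arrays and a random block; leaving out 1 animal gave 0 to 1 (Kcnk5, without sufficient 2). Over all probe sets the count of 90 became 33 with 2 µg arrays alone and 250 with the random block, and leaving out 1 animal gave 49 (without deficient 4) to 97, with 58 without sufficient 3. With the number across diets as a replicate block it was 77, with 0 members. The numbers did not pair the diets (r -0.08 to 0.07 for 4 same-numbered pairs). By amount, the block of diet and number gave 2 probe sets in place of 0 and changed no other call. Members above background numbered 4 in the main setting, 23 over the panel's 75th percentile, 45 over the 40th percentile of all probe sets, 14 with the mean of a gene's probe sets, 7 with 2 µg arrays alone, 31 over the control line, 7 without the 2 animals with high Acta1 (the last 2 added after seeing the data), and 4 to 6 with 1 animal left out. Of 264 values of named members under alternatives, 260 kept their sign and side of the threshold, 2 passed it (Kcnk5) and 2 turned without those 2 animals (Kcna4 -0.12, Kcnk1 -0.10). A pseudocount of 64 shrank the diet differences of Cacnb2, Kcna4, Kcnh4 and Kcnk1 by over 1.5 times, as it compresses low values. The other causes were not tested. Most members lie near background, where differences are compressed and replicate spread is wider: the median SD over 14 arrays was 0.49 for untested members and 0.35 for tested ones.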
